A study of Mus musculus with 2 samples.

Results

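The 35 genes described here were 20 glycolytic enzymes, 4 glucose or lactate transporters and 11 genes of the hypoxia response, chosen by symbol from the 55386 features counted in each of 2 single-cell libraries of aortic adventitial leukocytes. All 35 had at least 1 UMI (a unique molecular identifier, which counts each captured RNA molecule once) in each library. CD45+ cells were sorted from the adventitia, the outer layer of the aorta, of RankCreRosa26eYFP mice aged 16 weeks. In these mice Cre under the *Rank* promoter switches on eYFP and labels macrophages that descend from erythro-myeloid progenitors of the embryo. The same Cre and reporter were present in both libraries, so a *Yfp* transcript marks a labelled cell in either. The steady-state library came from 3 untreated animals pooled before capture, and the AngII library from 2 pooled animals after 10 days of angiotensin II at 1.8 µg per kg per min from osmotic pumps.

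With 1 library per condition, no difference could be set against the spread between mice and no test was run. Levels are given as CPM, the UMIs of a gene or list in each 1e+06 UMIs of a class of cells. Each ratio of 2 levels has an exact 95% interval that covers counting error only. The deposited barcodes, 346 at steady state and 4419 on AngII, equal the numbers of cells that the paper analysed. The filter thresholds stated in the paper were applied to them again. This kept fewer, 306 steady-state cells (median 9105 UMIs) and 4198 AngII cells (median 1092 UMIs), and no barcode occurred in both libraries. The cells were sorted into classes by marker genes that included none of the 35 genes. *Ptprc*, which encodes CD45, had a UMI in 93.8% of steady-state and 63.6% of the shallower AngII cells. Markers of fibroblasts, smooth muscle, endothelium and red cells together reached 6.03 to 116 CPM at steady state, where smooth muscle was highest, and at most 29.7 CPM on AngII, where endothelium was highest. The resident macrophage class, gated on *Lyve1*, *Folr2*, *Cd163* and other markers, held 74 and 204 cells, and *Lyve1* in it was 1702 CPM against 132 CPM in the other steady-state cells and 771 against 41.3 CPM on AngII. The reparative class, gated on *Arg1*, *Spp1* and other markers, had 389 AngII cells. At steady state 9 classes had at least 10 cells, and on AngII 15 did. Barcodes with markers of more than 1 major class, 87 at steady state and 622 on AngII, were left in as possible doublets.

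Glycolysis converts glucose to pyruvate in the cytosol, and lactate dehydrogenase can turn the pyruvate into lactate, which monocarboxylate transporters carry out of the cell. When oxygen is low, prolyl hydroxylases no longer mark hypoxia-inducible factor (HIF) for destruction, and HIF with its partner binds short DNA sites near many genes of glucose uptake, glycolysis and lactate export. In macrophages HIF-1α and glycolysis are also known to be raised by inflammatory stimuli at normal oxygen.

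The core letters of the HIF binding site, ACGTG or GCGTG on either strand, were searched in RefSeq promoter windows of GRCm38.p6, each running from 250 bases before to 50 bases after a transcription start. Of the 35 genes, 32 had a window in the table. A match or more lay in 40 of their 48 windows (83.3%), against 14380 of 32851 promoter windows of all genes (43.8%). Counted by gene, 30 of 32 members and 46.7% of all genes had a match, and *Gpi1* and *Tpi1* were the members without one. Member windows had a median GC content of 62.7% and all windows 52.7%, so base composition differed between the sets, and its part in the share of matches was not tested. Stretches upstream of 6 members that the values below turn on are printed 5′ to 3′ on the strand of the gene, each starting 150 bases before the transcription start, with matches (also CACGT and CACGC, the reverse complements) in capitals. CACGTG is a match on both strands. Exon bases were left out of *Slc16a3* and *Bnip3*.
*Pgk1*, chrX:106186950-106187099, forward strand: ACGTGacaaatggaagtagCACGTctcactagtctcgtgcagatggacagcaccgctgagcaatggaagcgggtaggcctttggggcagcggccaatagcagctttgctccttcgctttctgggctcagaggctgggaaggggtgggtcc
*Pgam1*, chr19:41911721-41911870, forward strand: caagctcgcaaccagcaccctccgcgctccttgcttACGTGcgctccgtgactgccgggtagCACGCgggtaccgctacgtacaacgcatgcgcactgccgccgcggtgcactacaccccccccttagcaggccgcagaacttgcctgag
*Ldha*, chr7:46845654-46845803, forward strand: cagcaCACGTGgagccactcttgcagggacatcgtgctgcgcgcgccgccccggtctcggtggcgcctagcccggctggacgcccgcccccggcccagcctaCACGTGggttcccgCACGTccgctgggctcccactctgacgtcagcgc
*Slc16a3*, chr11:120948917-120949052, forward strand: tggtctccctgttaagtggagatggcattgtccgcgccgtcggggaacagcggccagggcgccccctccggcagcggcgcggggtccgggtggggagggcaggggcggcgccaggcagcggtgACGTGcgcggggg
*Hif1a*, chr12:73907717-73907866, forward strand: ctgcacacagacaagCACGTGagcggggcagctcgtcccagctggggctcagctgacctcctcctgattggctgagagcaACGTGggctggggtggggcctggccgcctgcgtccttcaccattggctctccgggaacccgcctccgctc
*Bnip3*, chr7:138909520-138909656, reverse strand: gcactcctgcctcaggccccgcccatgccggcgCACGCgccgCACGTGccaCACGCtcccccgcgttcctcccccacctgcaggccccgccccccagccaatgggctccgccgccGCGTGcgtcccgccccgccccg
*Ldha*, which encodes the lactate dehydrogenase subunit that favours lactate formation, and *Bnip3*, a mitophagy receptor, each had 5 matches in the printed stretch. *Ldha* had 2 windows, with 7 and 2 matches over their whole length, and the stretch printed is from the one with more. *Hif1a*, which encodes the oxygen-regulated subunit of HIF itself, had 3, *Pgk1* and *Pgam1* had 2 each, and *Slc16a3*, the lactate exporter MCT4, had 1. A match of this kind is a description of letters and not a measured binding site.

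On AngII, reparative macrophages had the highest summed level of the glycolytic enzymes, 5054 CPM. Classical monocytes followed at 4274 CPM, type-2 macrophages (*Ear2*, *Retnla*, *Lyz1*) at 4202 CPM and type-2 innate lymphoid cells at 4112 CPM. T cells had 4072 CPM and neutrophils 4034 CPM. In the order of levels only the step from reparative macrophages to classical monocytes stood apart among these classes (1.18-fold, interval 1.15 to 1.22). The neighbours from classical monocytes down to neutrophils did not differ beyond counting error. Only neighbours among these classes were set against each other here. Type-2 dendritic cells had 3841 CPM, type-1 dendritic cells 3668 CPM, nonclassical monocytes 3523 CPM, migratory dendritic cells 3434 CPM and mast cells 3307 CPM. Resident macrophages at 2621 CPM, NK cells at 2513 CPM, other macrophages, gated on *C1qa*, *Adgre1* and *Apoe*, at 2498 CPM and B cells at 2214 CPM formed the low end. Reparative macrophages were 2.28-fold above B cells (2.15 to 2.43). The 1283 AngII cells that no marker list placed, with a median of 774 UMIs, had 4111 CPM.

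The hypoxia-response genes were ordered differently. On AngII, type-2 innate lymphoid cells (1123 CPM) and reparative macrophages (1070 CPM) led, with classical monocytes at 733 CPM and neutrophils at 730 CPM. The remaining classes lay between 304 CPM in type-1 dendritic cells and 584 CPM in nonclassical monocytes, and NK cells were lowest at 289 CPM. *Hif1a* alone had 1212 of the 2197 UMIs of this sum in reparative macrophages and 815 of 1506 in classical monocytes. It had 316 of 912 in neutrophils and 94 of 306 in type-2 innate lymphoid cells. The order of the classes without *Hif1a* is not given. The transporters were highest in neutrophils (300 CPM) and reparative macrophages (204 CPM), and lowest in migratory dendritic cells (37.5 CPM).

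At steady state nonclassical monocytes (16 cells) had 3155 CPM of glycolytic enzymes, type-2 innate lymphoid cells (12 cells) 2790 CPM, type-2 macrophages 2729 CPM and type-1 dendritic cells 2651 CPM. Type-2 dendritic cells had 2318 CPM, T cells 1865 CPM, resident macrophages 1740 CPM, other macrophages 1519 CPM and B cells 1307 CPM. Resident macrophages and B cells were thus at the low end in both libraries. Over the 24 classes of both libraries, the summed glycolytic and hypoxia-response levels had a Pearson correlation of 0.54 on the log2(CPM + 10) scale, given as a description since classes of 1 library share their depth and free RNA.

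**Figure D1:**
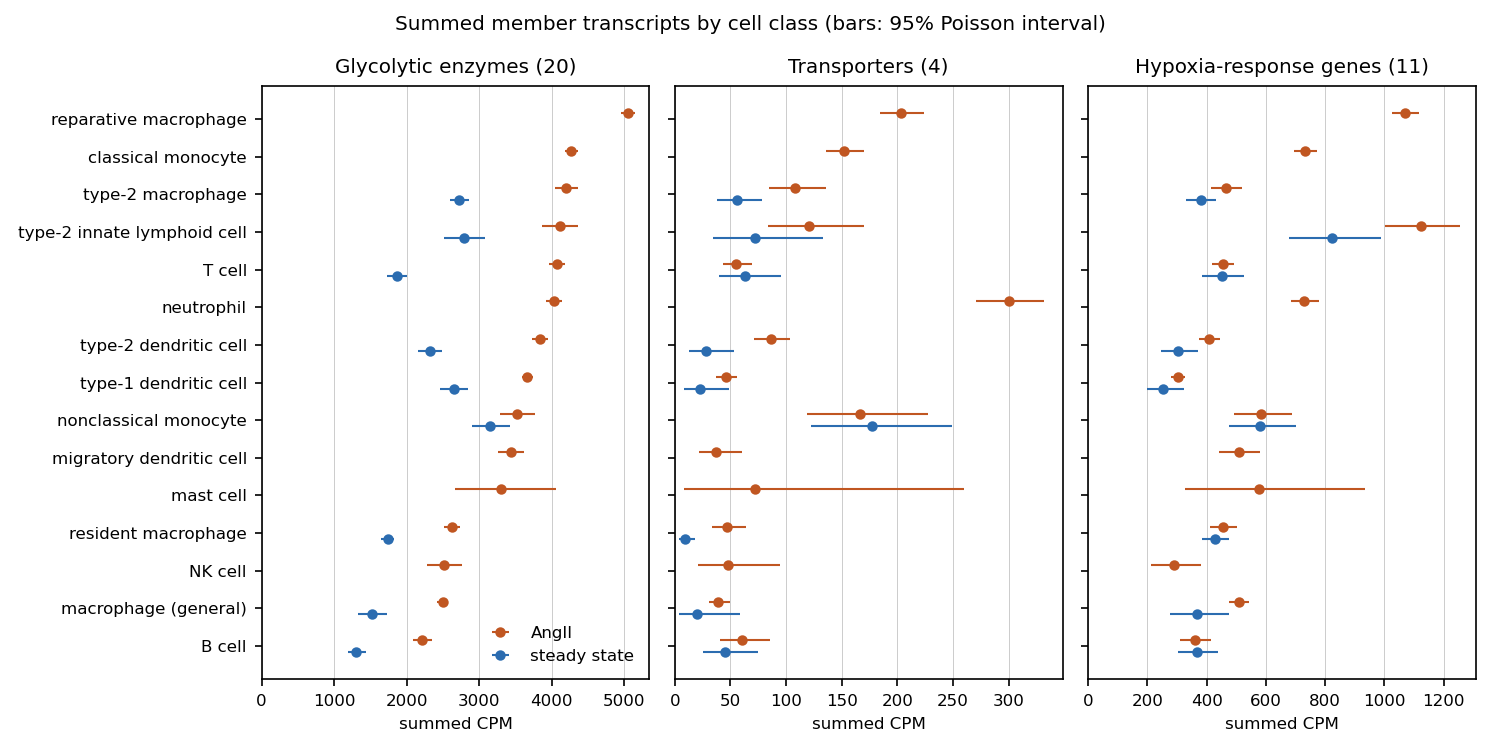
Summed level (CPM) of glycolytic enzymes, transporters and hypoxia-response genes in each cell class, for the steady-state and AngII libraries, with bars for the exact 95% counting interval. Reparative macrophages on AngII lead the glycolytic panel at 5054 CPM and B cells at steady state are lowest at 1307 CPM.

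Within the AngII library, reparative macrophages exceeded resident macrophages 1.93-fold (1.84 to 2.02) in summed glycolytic enzymes, 4.32-fold (3.12 to 6.13) in transporters and 2.35-fold (2.11 to 2.63) in hypoxia-response genes. The classes had similar depth, with medians of 1307 and 1139 UMIs per cell. Among cells of at least 1000 UMIs, the quartiles of glycolytic enzymes ran from 3378 to 6353 CPM over 241 reparative cells and from 1731 to 3510 CPM over 115 resident cells, so the ranges overlapped at their edges. With at least 100 UMIs in both classes together, 22 of the 35 members could be read, the other 13 had too few UMIs, and 15 of them were higher in reparative macrophages by at least 1.5-fold and 0 lower. Of all 4321 genes that could be read, 10.6% were higher and 14.7% lower by that much. The median ratio was 2.08 over the read members, and the median log2 ratio over all read genes was -0.08.

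Of 13 read glycolytic enzymes, 9 were past the fold. *Aldoa*, the aldolase that splits the phosphorylated hexose, was 602 CPM in reparative and 234 CPM in resident macrophages (2.57-fold). *Pgam1*, the mutase ahead of enolase, was 375 against 127 CPM (2.95-fold, 2.41 to 3.64), and *Eno1*, the main enolase, 432 against 159 CPM (2.72-fold). *Pkm*, the pyruvate kinase of the last step, was 621 against 218 CPM (2.85-fold, 2.44 to 3.34). *Gapdh* and *Pgk1*, which form the ATP-yielding middle of the pathway, were 1335 against 702 CPM (1.90-fold) and 347 against 161 CPM (2.15-fold). *Tpi1* (1.69-fold) and the phosphofructokinase genes *Pfkl* (2.84-fold) and *Pfkp* (1.53-fold) also passed the fold. The other 4 were within 1.5-fold. *Hk2*, a hexokinase, was 77.0 against 58.9 CPM (1.31-fold, 0.945 to 1.83), *Gpi1*, the isomerase after it, 275 against 231 CPM, and *Ldha* 423 against 343 CPM (1.23-fold, 1.08 to 1.41). *Pfkfb3*, which makes an activator of phosphofructokinase, had an interval that spanned 1 (0.510 to 1.21). Cells of at least 1000 UMIs were also thinned to 1000 UMIs, and shallower cells were left out (148 of 389 reparative cells). The *Gapdh* ratio was then 1.20 (0.958 to 1.52) and that of *Pkm* 4.17 (2.59 to 7.10).

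The glucose importer *Slc2a1*, which encodes GLUT1, was 74.0 CPM in reparative and 14.1 CPM in resident macrophages (5.24-fold, 2.91 to 10.4). *Slc16a3* was 123 against 24.7 CPM (4.98-fold, 3.19 to 8.19), on 21 UMIs in resident cells. The ratios of both transporter genes were larger than that of any read enzyme, although both intervals overlapped those of *Pgam1* and *Pkm*.

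Of 7 hypoxia-response genes that could be read, 4 were past the fold. *Hif1a* was 590 CPM in reparative and 156 CPM in resident macrophages (3.80-fold, 3.17 to 4.58) and made up 55.2% and 34.2% of the hypoxia sum. *Hilpda*, which encodes a lipid-droplet protein that slows triglyceride breakdown, was 68.2 against 5.89 CPM (11.6-fold, 4.84 to 36.2), with 5 UMIs in resident cells and 15.0% of the reparative UMIs in 1 cell. After thinning to 1000 UMIs per cell the *Hif1a* ratio was 7.58 (3.73 to 17.9) and the *Hilpda* ratio 2.86 (0.347 to 132). *Bnip3* (45.8 against 18.9 CPM) and *Mxi1*, a MYC antagonist (68.7 against 34.2 CPM), were 2.43-fold and 2.01-fold higher. *Bnip3l*, the relative of *Bnip3*, was 97.4 against 111 CPM (0.880-fold, 0.685 to 1.14), and *Egln1*, a prolyl hydroxylase, and *P4ha1*, a collagen prolyl hydroxylase subunit, were within 1.5-fold. Among the 22 read members, the 3 largest ratios were those of *Hilpda*, *Slc2a1* and *Slc16a3*.

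**Figure D2:**
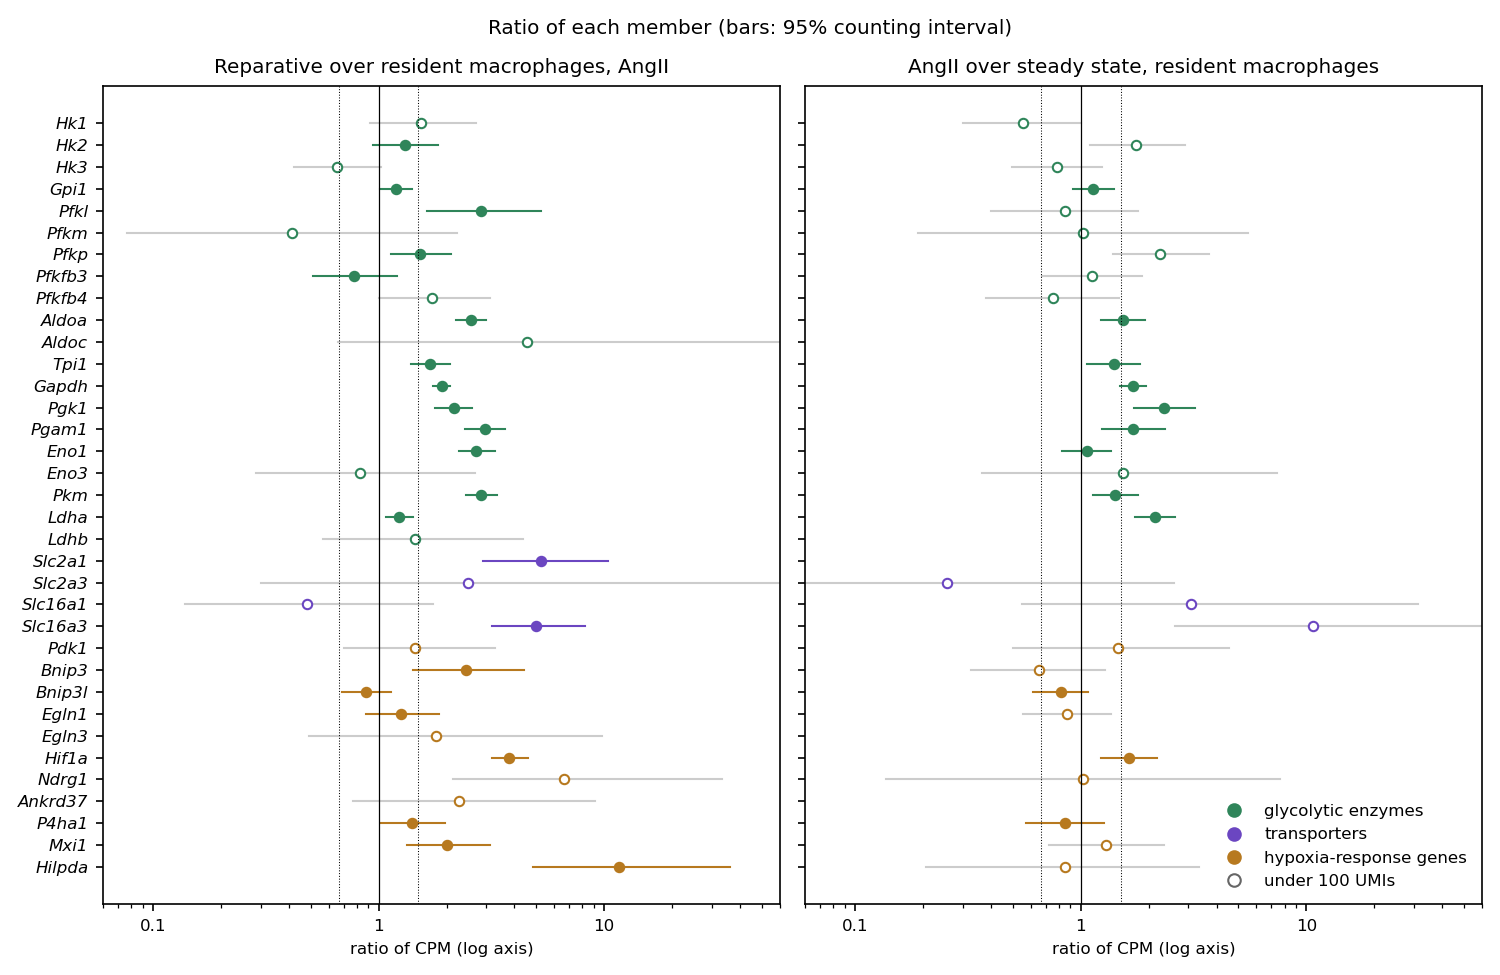
Ratio of CPM (log axis) for each member, reparative over resident macrophages on AngII and AngII over steady state in resident macrophages, with exact 95% counting intervals, which are clipped at the axis limits. Dotted lines mark 1.5-fold either way, open symbols mark members under 100 UMIs in both groups together, members with 0 UMIs in a group are left out, and *Hilpda* lies farthest right in the first comparison at 11.6.

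Other genes of the same biology differed unevenly between these classes, and the counts of each list stand against the 10.6% of all read genes that were higher and the 14.7% lower. Of 30 further HIF pathway and hypoxia target genes 14 could be read, with 6 higher and 2 lower in reparative macrophages and a median ratio of 1.36. *Vegfa*, the vascular growth factor, was 229 against 9.43 CPM (24.3-fold, 12.2 to 56.6), *Bhlhe40*, a transcriptional repressor, 129 against 16.5 CPM, and *Mif*, a cytokine gene, 324 against 140 CPM. The metallothionein *Mt2* (0.427-fold) and the prolyl hydroxylase *Egln2* (0.519-fold) were lower. In the pentose phosphate pathway, which branches from glycolysis and yields NADPH, 4 of 5 read genes were higher: *Pgd* (2.10-fold), *Taldo1* (2.09-fold), *G6pdx* (1.60-fold) and *Tkt* (1.53-fold). In the tricarboxylic acid cycle and pyruvate entry list 22 of 26 genes could be read, 2 higher, 3 lower, with a median ratio of 0.930. The higher ones were *Acod1*, which makes itaconate from a cycle intermediate (79.4 CPM against 1 UMI, 67.4-fold with an interval of 11.9 to 2678), and *Mpc1*, a mitochondrial pyruvate carrier subunit (163 against 108 CPM). The lower ones were *Idh2* (0.425-fold), *Fh1* (0.464-fold) and *Idh1* (0.567-fold), and both shares of this list were near those of all genes. Of 2 read genes of gluconeogenesis and glycogen, the glycogen phosphorylase *Pygl* was higher (2.24-fold). Of 10 read dissociation stress genes 1 was higher and 3 lower, and the list summed to 9739 CPM in reparative and 10893 CPM in resident macrophages.

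Set against classical monocytes of the same library, reparative macrophages were 1.18-fold higher in glycolytic enzymes, 1.34-fold (1.16 to 1.56) in transporters and 1.46-fold (1.37 to 1.56) in hypoxia-response genes. Of 25 read members 7 were past the fold and 0 lower, where 10.4% of 5220 genes were higher and 7.30% lower. *Hilpda* was again the member farthest apart (68.2 against 6.82 CPM, 10.0-fold, 5.77 to 18.8), followed by *Bnip3* (2.48-fold) and *Slc2a1* (1.69-fold). Classical monocytes themselves exceeded resident macrophages 1.63-fold (1.56 to 1.71) in glycolytic enzymes and 1.61-fold (1.44 to 1.81) in hypoxia-response genes, with 8 of 18 read members higher and 0 lower, where 16.4% of all genes were higher and 20.8% lower. *Hif1a* made up 815 of the 1506 hypoxia-response UMIs of classical monocytes. Of 5 read hypoxia-response genes *Hif1a* was the only 1 past the fold, and their median ratio was 1.07. Neutrophils were 1.54-fold (1.46 to 1.62) above resident macrophages in glycolytic enzymes and 6.37-fold (4.59 to 9.06) in transporters. Of 17 read members 9 were higher and 0 lower in neutrophils, where 17.6% and 19.5% of all genes were. Of 10 read dissociation stress genes 5 were higher in neutrophils and 0 lower, with a median ratio of 1.43. Their part in the neutrophil ratios was not tested. Type-2 macrophages on AngII were 1.60-fold (1.52 to 1.70) above resident macrophages in glycolytic enzymes and 1.02-fold (0.878 to 1.19) in hypoxia-response genes. In that comparison 9 of 12 read members were higher and 0 lower, where 11.6% of all genes were higher and 22.3% lower.

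In resident macrophages the summed glycolytic enzymes were 1740 CPM at steady state and 2621 CPM on AngII, 1.51-fold higher (1.41 to 1.61). The transporters were 9.21 CPM on 8 UMIs and 47.1 CPM on 40 UMIs, 5.12-fold higher (2.36 to 12.7). The hypoxia-response genes were 428 and 455 CPM, a ratio of 1.06 with an interval that included 1 (0.919 to 1.23), and 0.900 (0.757 to 1.07) without *Hif1a*. Of 12 members that could be read, 6 were higher on AngII by at least 1.5-fold and 0 lower, where 12.6% of 2910 genes were higher and 10.1% lower. The libraries were not alike in other respects: a resident cell had a median of 10328 UMIs in the steady-state library and 1139 in the AngII library, and the dissociation stress genes summed to 17268 and 10893 CPM. Their part in these ratios was not tested, and the condition cannot be told apart from the library.

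*Pgk1* was 69.1 CPM at steady state and 161 CPM on AngII (2.34-fold, 1.71 to 3.22), and *Ldha* 161 and 343 CPM (2.13-fold, 1.73 to 2.62). *Gapdh* was 413 and 702 CPM (1.70-fold), *Pgam1* 74.8 and 127 CPM (1.70-fold) and *Aldoa* 153 and 234 CPM (1.53-fold). *Gpi1* (1.13-fold), *Eno1* (1.06-fold), *Tpi1* (1.40-fold) and *Pkm* (1.42-fold) stayed within 1.5-fold. Among the hypoxia-response genes *Hif1a* was 95.6 and 156 CPM (1.63-fold, 1.23 to 2.17), whereas *Bnip3l* (0.815-fold) and *P4ha1* (0.853-fold) had intervals that included 1. *Slc2a1* had 0 UMIs in 74 steady-state cells, where a count of 0 allows up to 3, and 12 UMIs in 204 AngII cells. *Slc16a3* had 2 and 21 UMIs, a ratio of 10.7 with a wide interval (2.63 to 94.6). In the pathway lists, *Anxa2* (2.45-fold), *Hmox1* (2.41-fold) and *Mt2* (2.32-fold) led 5 higher of 9 read HIF pathway and hypoxia targets, and *Cited2* (0.212-fold) and *Selenbp1* (0.365-fold) were lower. Of 15 read genes of the tricarboxylic acid cycle and pyruvate entry list, 5 were higher, among them *Mpc1* (1.96-fold), *Mdh2* (1.86-fold) and *Mpc2* (1.76-fold), and 0 lower. Of 4 read pentose phosphate genes *Pgd* was higher (1.77-fold).

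The same direction in the glycolytic sum was present in all 9 classes that had at least 10 cells in both libraries, each with an interval above 1. The ratios ran from 1.12 in nonclassical monocytes to 2.18 in T cells with a median of 1.54. Without *Gapdh* the sum was higher in 8 of the 9 classes, and nonclassical monocytes were at 0.980. The hypoxia-response sum was higher in 8 classes but had an interval above 1 in only 4 of them: other macrophages (1.39-fold), type-2 innate lymphoid cells (1.36-fold), type-2 dendritic cells (1.34-fold) and type-2 macrophages (1.22-fold). In the first 3 of these, 3, 2 and 2 hypoxia-response genes could be read. *Hif1a* was past the fold in each (2.70-fold, 2.81-fold and 2.20-fold). The only other was *P4ha1* in other macrophages (1.54-fold, 0.728 to 3.91). In other macrophages *Hif1a* had 10 of 55 hypoxia-response UMIs at steady state and 322 of 912 on AngII. In type-2 innate lymphoid cells it had 17 of 114 and 94 of 306, and in type-2 dendritic cells 23 of 98 and 199 of 517. Sums without *Hif1a* are not given for these classes, so a rise of the other hypoxia-response genes is not shown. The transporter sum had an interval above 1 in resident macrophages, type-2 macrophages and type-2 dendritic cells. All 9 classes come from the same pair of libraries and so are not 9 observations of a treatment.

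T cells were at the top of this range. Their *Gapdh* was 534 CPM at steady state and 1649 CPM on AngII (3.09-fold, 2.66 to 3.61), the highest level of *Gapdh* in any of the 14 AngII classes that had at least 100000 UMIs, and it made up 28.6% and 40.5% of the glycolytic sum. *Pgk1* was 99.9 and 265 CPM (2.65-fold), *Ldha* 211 and 559 CPM (2.64-fold), *Tpi1* 54.3 and 137 CPM (2.52-fold) and *Pgam1* 74.2 and 185 CPM (2.50-fold). Of 9 read glycolytic enzymes 7 were higher, but 36.4% of 2457 read genes were higher as well and 12.9% lower. *Hif1a* in T cells was 82.8 and 105 CPM (1.26-fold, 0.840 to 1.96), and their hypoxia-response sum differed by 1.01-fold (0.842 to 1.21). In B cells, at the low end in both libraries, 4 of 6 read glycolytic enzymes were higher and 0 lower, where 11.0% of all genes were higher and 9.97% lower, with *Pkm* 84.7 and 187 CPM (2.21-fold) and *Gapdh* 297 and 634 CPM (2.14-fold).

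Among dendritic cells, 8 of 10 read glycolytic enzymes were higher on AngII in type-2 cells and 5 of 11 in type-1 cells, with 0 lower in either. Of all genes, 17.4% were higher and 11.4% lower in type-2 cells, and 18.7% and 11.7% in type-1 cells. *Ldha* was 223 and 507 CPM in type-2 cells and 422 and 715 CPM in type-1 cells. *Hif1a* was 71.4 and 157 CPM in type-2 cells (2.20-fold) and 48.6 and 90.9 CPM in type-1 cells (1.87-fold, 1.07 to 3.57). In other macrophages 6 of 9 read enzymes were higher, where 26.8% of all genes were higher and 13.9% lower, and *Gapdh* was 260 and 698 CPM (2.69-fold). Type-2 macrophages had 5 of 10 read enzymes higher (13.5% of all genes higher, 10.7% lower), led by *Pgam1* (2.85-fold) and *Pgk1* (2.17-fold), while *Bnip3l* was lower there (0.568-fold, 0.404 to 0.795). Nonclassical monocytes had 2 of 6 read enzymes higher (10.4% of all genes), *Aldoa* (1.76-fold) and *Gapdh* (1.56-fold), and 1 lower (14.7% of all genes), *Eno3* (0.545-fold, 0.364 to 0.811). In type-2 innate lymphoid cells 2 of 5 read enzymes were higher, *Pkm* (2.03-fold) and *Ldha* (1.61-fold), where 15.2% of all genes were higher and 10.1% lower, and *Hif1a* was 123 and 345 CPM (2.81-fold, 1.66 to 5.02).

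The dissociation stress genes also differed between the libraries in several of these classes. In other macrophages they summed to 22428 CPM at steady state and 9295 CPM on AngII, with 9 of 10 read genes lower and 0 higher. In type-2 macrophages the sums were 13339 and 8071 CPM, with 6 of 10 lower. Type-1 dendritic cells had 9347 and 5724 CPM (5 of 10 lower, 1 higher), and type-2 dendritic cells 13756 and 10223 CPM (4 of 10 lower, 1 higher). T cells had 2 of 9 read stress genes higher and 2 lower, B cells 1 of 10 higher and 2 lower, nonclassical monocytes 1 of 9 higher and 1 lower, and type-2 innate lymphoid cells 0 of 8 higher and 1 lower. Their part in the ratios of these classes was not tested.

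Within the resident class the origin label could be compared in the same library. On AngII 57 cells had a *Yfp* UMI and 147 had none, with a median depth of 6739 and 925 UMIs. A cell without a *Yfp* UMI at such depth is not shown to be unlabelled. *Yfp*+ and *Yfp*− resident macrophages had 2631 and 2604 CPM of glycolytic enzymes, a ratio of 1.01 (0.927 to 1.10) that fell on either side of 1 between settings (0.859 to 1.16), and 465 and 439 CPM of hypoxia-response genes (1.06, 0.859 to 1.31). Of 10 read members 0 were past the fold in either direction, where 3.29% of 1429 genes were higher and 2.73% lower. *Gapdh* was 693 and 718 CPM, *Ldha* 346 and 337 CPM and *Hif1a* 151 and 163 CPM. The transporters were 34.4 CPM on 18 UMIs and 67.5 CPM on 22 UMIs (0.511-fold, 0.258 to 0.997). At steady state, with 61 and 13 cells, the glycolytic ratio was 1.13 (0.943 to 1.37). Of 7 members read there 1 was higher, *Ldha* (172 against 60.7 CPM on 5 UMIs), and 0 lower, where 18.4% of genes were higher and 8.47% lower.

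Single members had their highest AngII level in different classes. Over the 14 classes of at least 100000 UMIs, reparative macrophages were highest for 9 members, neutrophils for 6, T cells for 5, type-2 innate lymphoid cells for 4 and migratory dendritic cells for 3. The share of all genes that were highest in each class is not given, so these counts have no reference and only describe the members. For 4 of the 9 in reparative macrophages, *Aldoa*, *Pgk1*, *Pgam1* and *Hif1a*, the ratio to the next class had an interval above 1, and *Hif1a* was 590 CPM against 397 CPM in classical monocytes (1.49-fold, 1.36 to 1.63). Neutrophils, which rely largely on glycolysis for ATP, had the highest *Slc16a3* (183 CPM, 1.49-fold above reparative macrophages), *Pfkfb4* (61.6 CPM) and *Egln3*, another prolyl hydroxylase (57.6 CPM, 3.00-fold above T cells, 1.87 to 4.99). *Slc2a1* at 79.2 CPM in neutrophils and 74.0 CPM in reparative macrophages did not differ beyond counting error. T cells had the highest *Pdk1*, the kinase that holds pyruvate back from mitochondria, at 51.9 CPM, and 80.0 CPM at steady state. The ratio to the next class, type-2 innate lymphoid cells, was 1.42 (0.723 to 3.09) on AngII and 2.21 (0.844 to 7.34) at steady state. Neither lead of *Pdk1* was beyond counting error. In any AngII class of that size *Pfkm* reached at most 10.4 CPM (T cells), *Aldoc* 15.5 CPM (type-1 dendritic cells), *Ankrd37* 25.3 CPM (B cells), *Ldhb* 27.2 CPM (T cells) and *Ndrg1* 37.5 CPM (nonclassical monocytes).

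**Figure D3:**
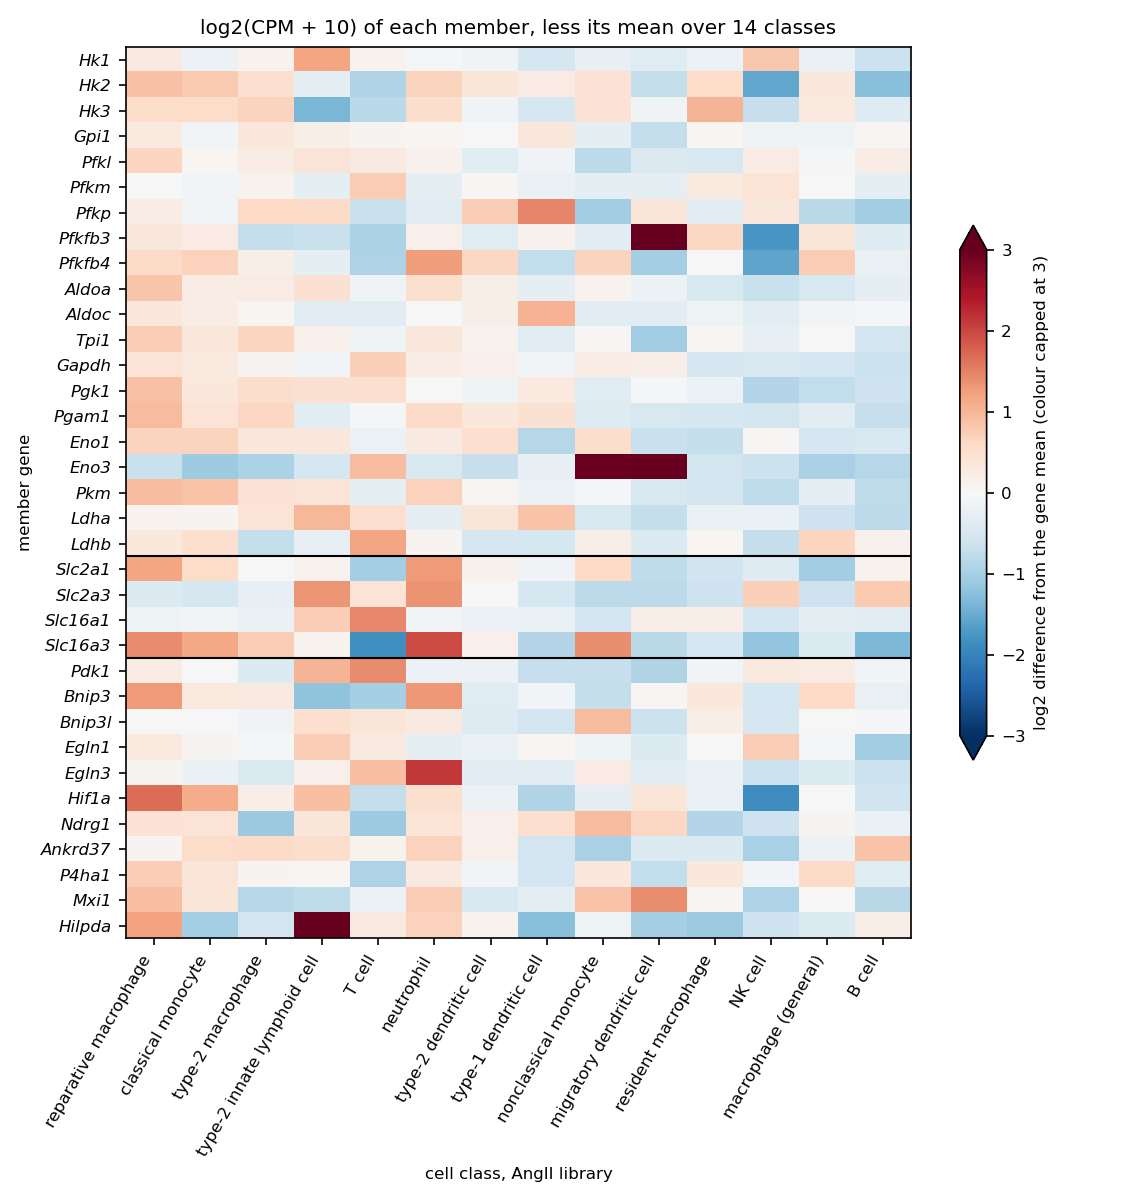
Log2 level of each member in each of 14 AngII cell classes, as the difference from the mean of the member over classes, on the log2(CPM + 10) scale, with colour capped at 3 in either direction. *Hilpda* stands out in type-2 innate lymphoid cells (404 CPM), *Pfkfb3* and *Eno3* in migratory dendritic cells (316 and 346 CPM).

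Genes that encode alternative forms of the same step divided by class. The 3′ libraries count 1 UMI per captured molecule whatever its length, so the forms are given as shares of the UMIs of their family. Migratory dendritic cells had 67.6% of 219 enolase UMIs in *Eno3*, the muscle-type enolase, and nonclassical monocytes 32.4% of 139, against 1.33% of 899 in reparative macrophages. At steady state nonclassical monocytes had 51.6% of 124 in *Eno3*. In migratory dendritic cells 18 of 60 cells had an *Eno3* UMI, and 22.3% of its UMIs were in 1 cell. The same class had 98.5% of 137 UMIs of the *Pfkfb* pair in *Pfkfb3*, whose 316 CPM was 7.66-fold (5.25 to 11.5) above the next class, resident macrophages.

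The leading hexokinase gene differed between classes. *Hk1* had 59.7% of 62 hexokinase UMIs in T cells and 71.4% of 28 in type-2 innate lymphoid cells, while *Hk2* had 55.2% of 286 in reparative macrophages and 55.4% of 148 in neutrophils. *Hk3* had 34.3% of 105 in resident macrophages on AngII and 42.3% of 111 at steady state, with 19.9% in reparative macrophages. In B cells of the AngII library *Hk1* had 41.2% of 17 hexokinase UMIs. For phosphofructokinase, *Pfkp* had 90.7% of 613 UMIs in type-1 dendritic cells, which also had the highest level of the gene (260 CPM, 1.70-fold above type-2 dendritic cells). For lactate transport, *Slc16a1*, which encodes MCT1, had 88.4% of 43 UMIs in T cells, and *Slc16a3* had 97.3% of 260 in reparative macrophages and 97.9% of 234 in neutrophils. For glucose uptake, *Slc2a1* had 96.2% of 158 UMIs in reparative macrophages and 70.2% of 141 in neutrophils, and *Slc2a3*, which encodes GLUT3, 61.5% of only 26 in T cells. *Ldha* had at least 91.4% of lactate dehydrogenase UMIs in every compared class of both libraries.

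**Figure D4:**
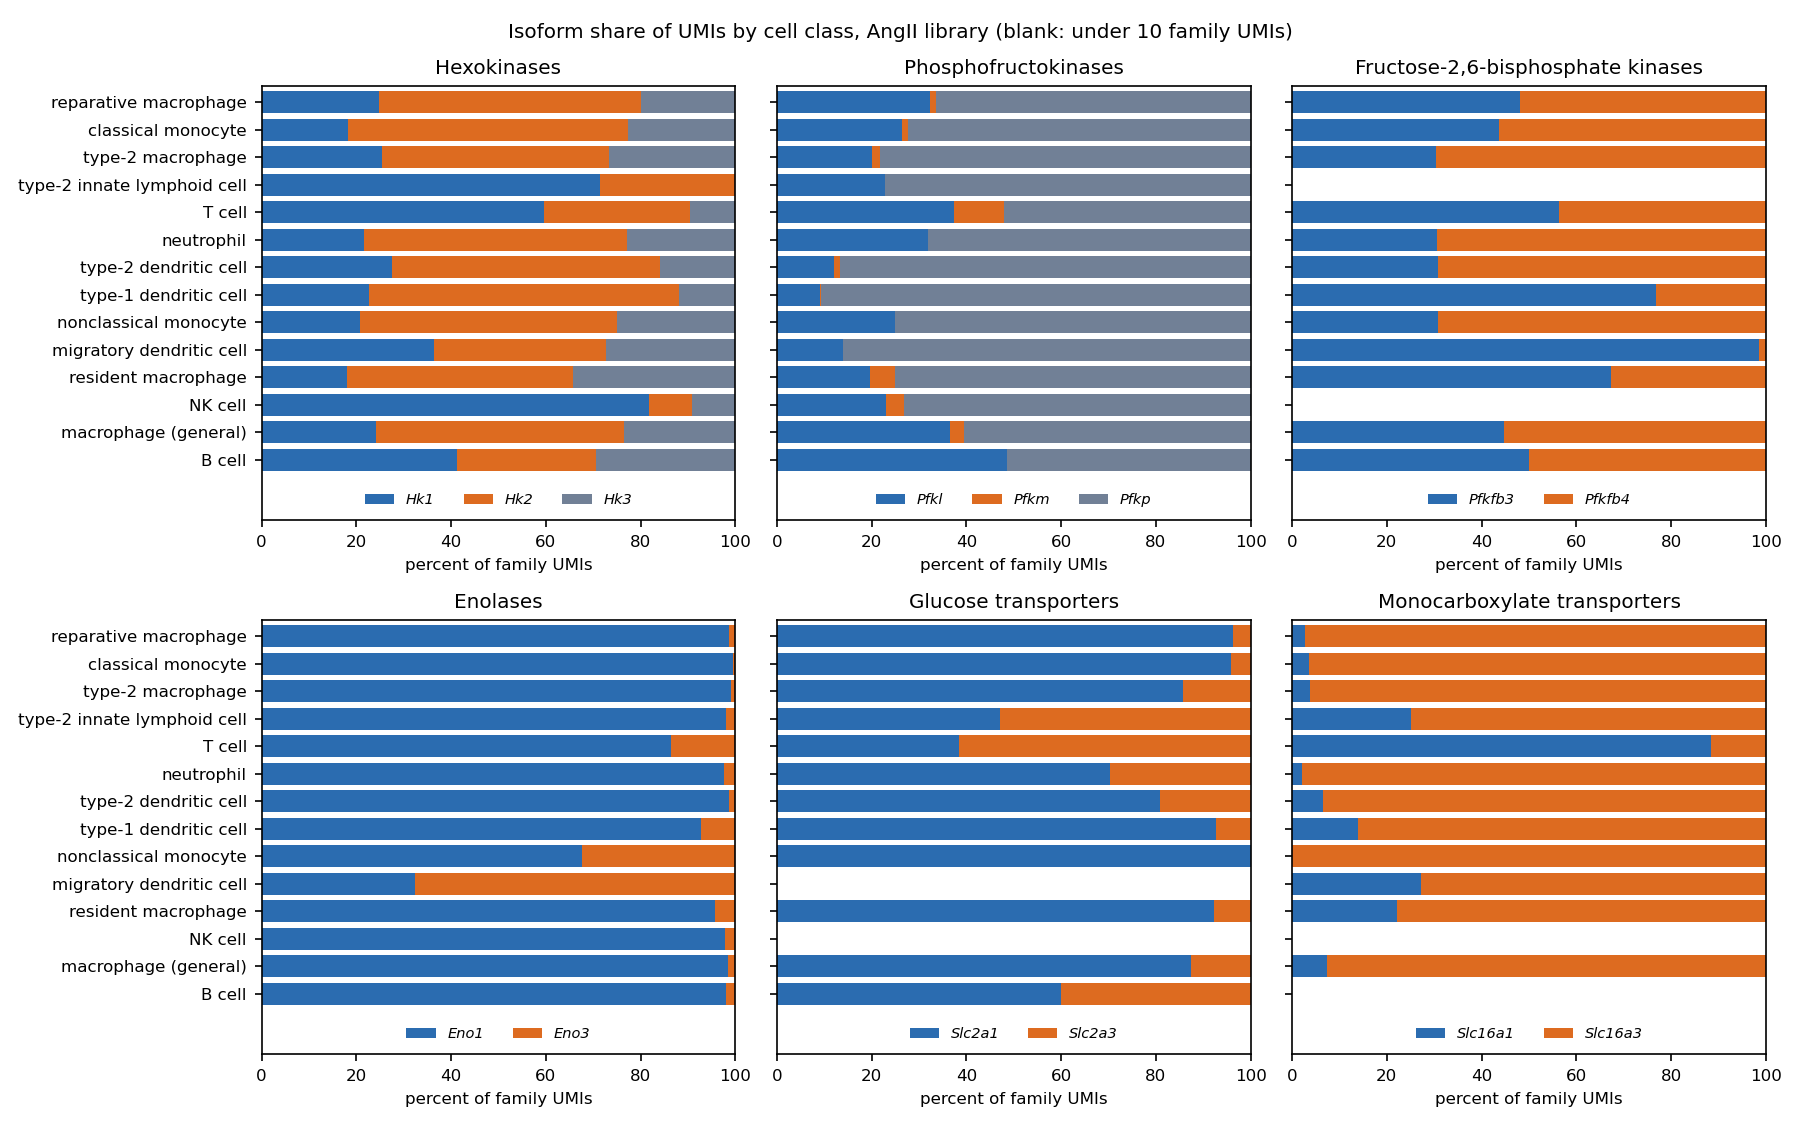
Percent of UMIs of each gene family that came from each member, by AngII cell class, for hexokinases, phosphofructokinases, the *Pfkfb* pair, enolases, glucose transporters and monocarboxylate transporters. Classes with under 10 UMIs of a family are blank, and *Eno3* reaches 67.6% of enolase UMIs in migratory dendritic cells.

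Type-2 innate lymphoid cells, gated on *Gata3*, *Il1rl1*, *Il7r* and others, had the highest hypoxia-response sum in both libraries, from 12 cells at steady state and 31 on AngII. On AngII the sum was 1.05-fold (0.928 to 1.18) that of reparative macrophages, which is within counting error. This first place rested on *Hilpda*: without it, an alternative chosen after the values were seen, the class ranked 4 of 9 at steady state (405 CPM, against 580 CPM in nonclassical monocytes) and 3 of 15 on AngII (719 CPM, against 1002 CPM in reparative macrophages). *Gata3* was 665 CPM in the class against 11.4 CPM in other steady-state cells, and 492 against 7.44 CPM in the AngII library, and *Il13* had no UMI in the class in either library. *Hilpda* was 419 CPM at steady state and 404 CPM on AngII. It made up 50.9% and 35.9% of the hypoxia sum. The next class was T cells at 31.4 CPM at steady state and reparative macrophages at 68.2 CPM on AngII (5.92-fold, 4.57 to 7.65). A *Hilpda* UMI was found in 9 of 12 and 14 of 31 cells, but 1 cell held 44.8% and 24.5% of its UMIs. After thinning to 1000 UMIs, with shallower cells left out, 3 of 12 and 6 of 29 type-2 innate lymphoid cells had one. The shares were 5.56% and 1.84% of T cells and 2.49% of reparative macrophages. The hypoxia-response sum was 1.83-fold (1.42 to 2.34) and 2.47-fold (2.15 to 2.85) that of T cells, and without *Hilpda* it was 0.964-fold (0.696 to 1.32) at steady state and 1.70-fold (1.44 to 2.01) on AngII. The dissociation stress genes moved the same way, with 8665 CPM in type-2 innate lymphoid cells and 3173 CPM in T cells of the steady-state library, and 8034 and 3038 CPM in the AngII library. On AngII 7 of 9 read stress genes were higher and 1 lower, and their part in these ratios was not tested. On AngII *Hif1a* was 345 CPM in type-2 innate lymphoid cells and 105 CPM in T cells (3.29-fold). Of 13 read members 4 were higher and 1 lower, where 20.4% of genes were higher and 29.3% lower. *Ldha* was 792 CPM in type-2 innate lymphoid cells, the highest level among AngII classes of at least 100000 UMIs. This was 1.11-fold (0.957 to 1.28) above type-1 dendritic cells. Mast cells, with fewer UMIs in all, had 899 CPM of *Ldha* on 25 UMIs.

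Of 6167 genes, those whose levels over the 24 classes were most like the hypoxia-response sum were *Lpcat2* (Pearson r = 0.80), *Chp1* (0.77), *Crem* (0.75), *Arg1* (0.75) and *Soat1* (0.74). *Arg1* was among the markers that defined the reparative class. These values describe classes that share libraries and carry no test.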

How the data were processed

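CD45+ adventitial cells were captured with 10x Genomics 3′ chemistry, and the authors aligned and counted reads with Cell Ranger 3.1.0 on GRCm38.p6 with an added eYFP sequence. The deposited values are raw UMI counts per gene and barcode, 1 matrix per library (4009678 UMIs at steady state, 20481854 on AngII). Cells under 300 or above 6500 genes, or above 5% mitochondrial UMIs, were dropped. These are the thresholds stated in the paper, but fewer cells were left here than the paper analysed. A cell joined the class with the strongest marker enrichment, given at least 2 markers, 3 UMIs and 2-fold enrichment, and 11 and 1283 cells stayed without a class. Doublets were left in.

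UMIs were summed per class and library and divided by all UMIs of the class (CPM). Intervals are exact at 95%: Poisson for levels, conditional binomial for ratios and Clopper-Pearson for shares. Cells are not replicates, and with 1 library per condition no p-value was computed. A gene was read in a comparison with at least 100 UMIs in both groups together, and past the fold means a ratio of at least 1.5 or its inverse. All 35 members were reported by group, and genes of the pathway lists were named where among the 3 highest or 3 lowest ratios. The members and lists were chosen with earlier results of these data known, the scoring of classes was settled after the data were seen, and the sum without *Hilpda* and the members singled out beyond these rules were chosen after their values were seen. The procedure was tested on simulated data. Coordinates and promoter sequences are from RefSeq on GRCm38.p6. Reads shared with near-identical copies can make levels of *Gapdh*, *Aldoa*, *Pgk1*, *Pgam1*, *Eno1* and *Ldha* uncertain: *Eno1b* had 131 UMIs on AngII and each of the processed copies listed at most 1. *Aldoa* had 2 feature rows, which were summed. Scripts ran in Python 3.11.15 with pandas 2.3.3, SciPy 1.17.1, NumPy 2.4.6 and, for plots, Matplotlib 3.10.9.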

Additional observations from a re-analysis of the deposited data

Results flagged for a closer look

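*Pfkp*, the phosphofructokinase form that was most abundant in type-1 dendritic cells, went opposite ways between libraries in the dendritic cell classes. It was 336 CPM at steady state and 260 CPM on AngII in type-1 cells (0.774-fold, 0.618 to 0.978), and 99.3 and 153 CPM in type-2 cells (1.54-fold, 1.06 to 2.32). In type-1 cells at steady state 30% of the *Pfkp* UMIs were in 1 cell, a spread that the interval does not cover. The difference between these ratios was not tested, and each rests on 1 library per condition with 13 type-1 and 19 type-2 cells at steady state.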

How the results depend on the processing

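Ratios were recomputed with all deposited barcodes, a minimum of 1000 detected genes, a stricter gate of 3 markers, likely doublets left out, cells thinned to 1000 UMIs, means of single-cell CPM, mitochondrial and ribosomal protein genes left out of the total, the cell with the most UMIs left out and the most abundant member left out. Cells under 1000 UMIs were not part of the thinned setting. The glycolytic ratio of AngII over steady state in resident macrophages (1.51) was 1.61 with all barcodes, 2.04 after thinning and 1.71 as a mean of single cells. The glycolytic ratio of reparative over resident macrophages (1.93) was 1.83, 1.84 and 1.73 under those settings. The hypoxia-response ratio of the same classes (2.35) was 2.03 as a mean of single cells and 1.60 without *Hif1a*, and that of AngII over steady state in resident macrophages (1.06) turned to 0.900 without *Hif1a*. The *Yfp*+ over *Yfp*− glycolytic ratio (1.01) was 1.16 with all barcodes and 1.11 with at least 1000 genes, and turned to 0.932 with the stricter gate, 0.859 after thinning, 0.929 as a mean of single cells and 0.973 with *Yfp*+ called from 2 UMIs. After thinning, 6 members of 8 read (15 of 22 in the report) were higher in reparative than resident macrophages, and 1 of 1 (6 of 12 in the report) on AngII in resident macrophages, since fewer UMIs were left to read. With all barcodes 1 member was lower in reparative macrophages (0 in the report). The shares of all genes past the fold under these settings are not given, so these counts have no reference. In type-2 innate lymphoid over T cells at steady state the hypoxia-response ratio of 1.83 turned to 0.964 without *Hilpda*. Of 175 and 96 recomputed values of single members in the 2 comparisons, 154 and 82 stayed within the interval of the value reported, and 0 called values reversed. The cause of the other changes was not tested. No paired analysis was possible because each condition has 1 library of pooled animals. The median of 1092 UMIs per AngII cell limits the rarer members: *Slc2a1* in AngII resident macrophages rests on 12 UMIs.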
